A study of Homo sapiens with 4 samples.

Results

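The 9 genes described here, MYC, MYCN, MYCL, MAX, MNT, MXI1, MXD3, MGA and MLX, encode factors of the MYC and MAX network. They were taken as a fixed list and matched by symbol to the gene annotation, and all 9 were found among the 60564 gene identifiers of the count files. RNA-seq was performed on Elf1, an established naïve human embryonic stem cell (ESC) line, to compare its gene expression between conventional 2-D culture and culture in 3-D scaffolds. The 2-D grown cells were adherent on coated plates, and the length of their culture is not given in the sources used here. The 3-D grown cells were dissociated, enclosed in scaffolds of PEG-8-SH and PEG-8-Acr as these self-assembled, and kept there for 21 days. Both conditions used the same ESC expansion medium, which holds FGF2, LIF, the GSK3 inhibitor CHIR99021 and a MEK inhibitor. The line was kept on mouse feeder cells, and cells were moved to plates coated with Matrigel before they were enclosed in scaffolds. Each condition had 2 independent biological replicates of this 1 cell line.

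MYC, MYCN and MYCL are basic helix-loop-helix leucine zipper proteins that bind DNA as dimers with MAX, mostly at the E-box CACGTG, and raise transcription of genes for growth, ribosome production and metabolism. MAX also pairs with MNT and with the MXD proteins, among them MXI1 and MXD3, which recruit SIN3 corepressors to the same sites, and with MGA, a subunit of the polycomb complex PRC1.6. MLX forms a parallel arm with MLXIP and MLXIPL and shares MNT, MXD1 and MXD4 with MAX, and in naïve ESCs MYC and MYCN are known for supporting self-renewal.

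The E-box that these dimers bind was searched for in the promoters of the network's own genes, to show the element and where it lies. The promoter was the window from 250 bases before to 50 bases after the start site in RefSeq's table on GRCh38.p14. It has no entry for MYC, and CACGTG reads the same on both strands. Among the members, MNT and MLX each had 1 E-box, and it is shown with 20 bases on each side, 5′ to 3′ on the strand of the gene, with CACGTG in capitals.
MNT: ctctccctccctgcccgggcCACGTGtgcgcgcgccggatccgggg
MLX: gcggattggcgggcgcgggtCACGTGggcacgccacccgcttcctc
The MNT stretch is chr17:2401228-2401273 on the minus strand, and its E-box begins 193 bases before the start site, at position -193. The MLX stretch is chr17:42567030-42567075 on the plus strand, with the E-box beginning at -50. No CACGTG was present in the windows of MYCN, MYCL, MAX, MXI1, MXD3 or MGA. Of all 35116 promoters of the table, 2548 (7.26%) held the E-box, and it was present for 1515 (11.8%) of the 12892 tested genes that had an entry. These matches describe the letters of the window and were not tested for binding.

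The libraries held 33833778 and 30114220 counts in 2-D and 21154409 and 18276147 in 3-D, so the 3-D values carry more counting error. Levels are given as CPM, a gene's share of the library's counts on a fixed scale, after TMM scaling, and differences as log2 fold changes of 3-D over 2-D with the standard error (SE) of edgeR's quasi-likelihood fit. A gene is said to be higher or lower, or to have risen or fallen, only where its Benjamini-Hochberg adjusted p over all 22555 tested genes was below 0.05. By this rule 1782 genes (7.90%) changed, 1024 of them higher in 3-D (4.54%) and 758 lower (3.36%). Scaling by library size alone moved this split to 514 higher and 1879 lower and the median of all genes to -0.065. Mitochondrial transcripts took 5.30% and 5.10% of the counts in 2-D and 8.50% and 8.33% in 3-D. In bulk RNA, fewer cells of a type and less RNA per cell cannot be told apart.

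The labelled cell type was checked against its defining markers. The summed level of 5 core pluripotency genes (POU5F1, NANOG, SOX2, SALL4 and LIN28A) was 2697 and 2682 CPM in 2-D and 2766 and 2670 CPM in 3-D, and none of the 5 passed the test. Of 8 naïve state genes, 7 were tested and only KLF5 passed, higher in 3-D by 0.26 (SE 0.04, adjusted p = 0.00336). Of the 7 fold changes 3 lay above 0 and 4 below, with a median of -0.03. The summed level of the naïve list was 267 and 268 CPM in 2-D and 279 and 264 CPM in 3-D. Among markers of other cells, the fibroblast list had the largest summed level, at 537 and 529 CPM in 2-D and 546 and 595 CPM in 3-D. COL3A1, COL1A1 and THY1 of that list rose by 0.73, 0.29 and 0.22. COL1A2, at -0.04, and PDGFRB, at 0.02, did not pass the test, and DCN and LUM fell under the filter on low counts. The summed levels of the mesoderm, endoderm, neural and trophoblast lists were at most 60.2, 6.36, 1.17 and 3.07 CPM, and no gene of them passed. In these lists 1 neural and 1 trophoblast marker had no count in any library. A lack of counts does not by itself show that the RNA was absent. Whether fibroblast-like cells were present, and their part in the values below, was not tested.

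None of the 9 members passed the test between 2-D and 3-D, against 7.90% of all tested genes. At an unadjusted p below 0.05, 2 of 9 passed, MYC and MAX, against 21.3% of all genes. edgeR's likelihood ratio test and DESeq2 also called 0 of 9, with 0 at an unadjusted p below 0.05 by either. The fold changes of the members lay between -0.08 and 0.17 with a median of 0.06, where the median of all tested genes was -0.0001. The fold change was above 0 for 8 of 9 members, but for only 4 of 9 when libraries were scaled by size alone, with a median of -0.01. In 6 of 9 members both 3-D libraries lay above both 2-D libraries, as did 25.4% of all tested genes. With library size alone this count was 2, against 15.2% of all genes.

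**Figure D1:**
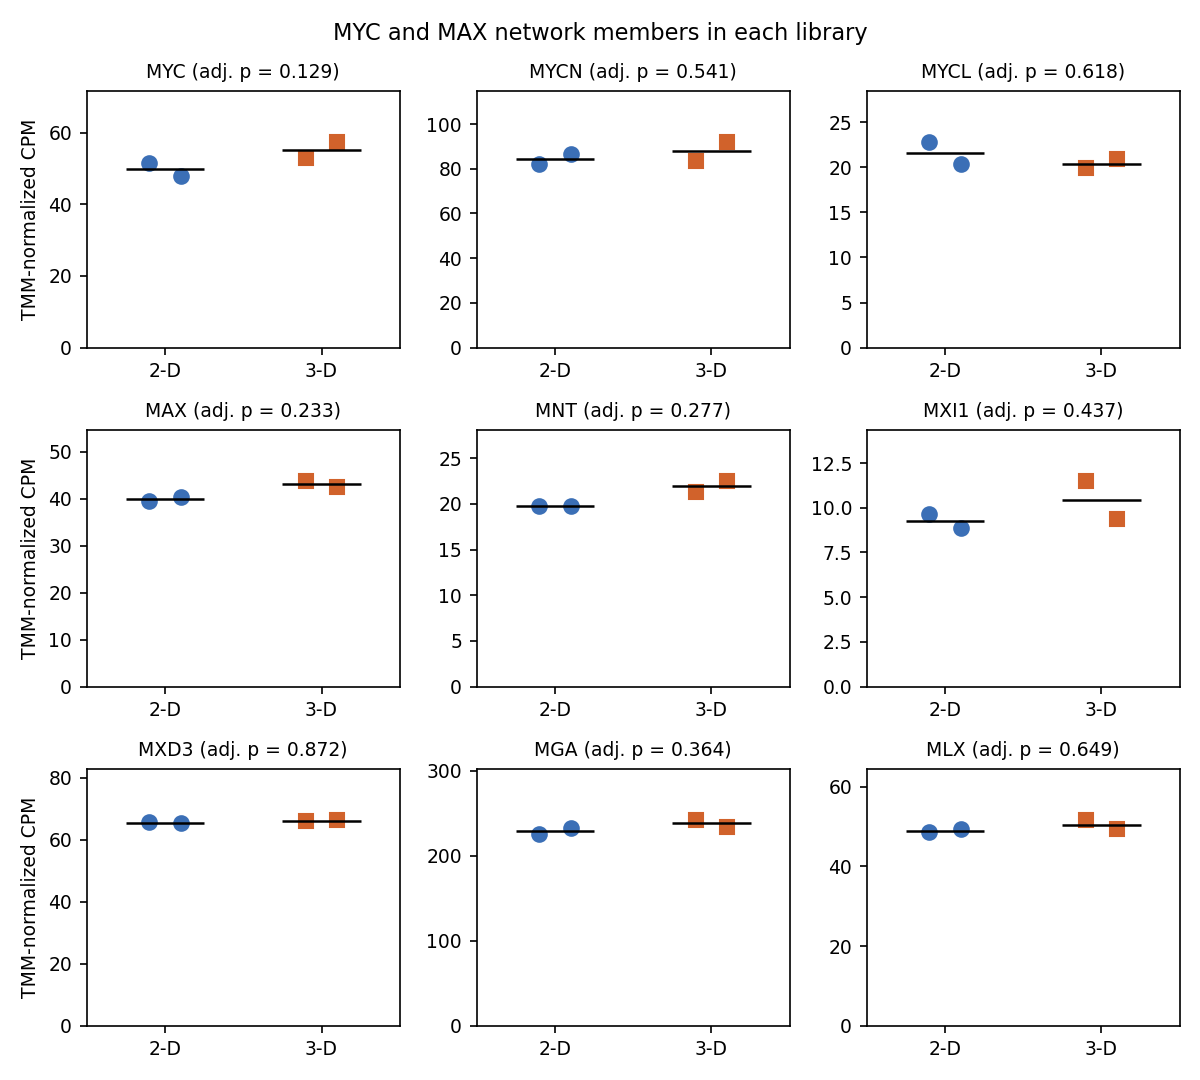
TMM-normalized CPM of the 9 members in each library, with 2-D libraries as blue circles, 3-D libraries as orange squares, the mean of the 2 libraries as a line and each vertical axis starting at 0. The conditions lie close together for every member, from 65.5 against 66.2 CPM for MXD3 to 9.28 against 10.4 CPM for MXI1, and the adjusted p in each title is above 0.05.

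MYC encodes the founding member of the family, whose short-lived protein is regulated by growth factor and Wnt signaling. Its gene (ENSG00000136997.19) lies on the plus strand at chr8:127735434-127742951 of GRCh38. MYC was at 51.5 and 48.0 CPM in the 2-D libraries and at 52.8 and 57.4 CPM in the 3-D libraries, from 1772, 1480, 1085 and 1029 counts. The conditions did not overlap, and the gap between them was smaller than the gap between the libraries of either condition. The means were 49.7 ± 2.42 in 2-D and 55.1 ± 3.26 in 3-D (SD, n = 2). The fold change was 0.15 (SE 0.05, 95% interval 0.03 to 0.26), or 10.6% with an interval from 2.08% to 19.8%. The unadjusted p was 0.0179 and the adjusted p was 0.129 by edgeR's quasi-likelihood test. The study lists MYC among the Wnt pathway genes enriched in 3-D from these samples, so its direction here is not independent evidence. The study's figure of those genes states a cutoff without naming an adjustment. The rule used here is adjusted over all tested genes, and MYC did not pass it, nor did it pass with DESeq2.

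The MYC value rested on the libraries used. Without 3-D replicate 1 its fold change was 0.21 with an adjusted p of 0.015, which passed the test, and over all 4 ways of leaving out a library it ranged from 0.09 to 0.21. The setting that moved it most with 4 libraries was library size alone, at 0.08. MYC did not pass under any of the 12 alternatives with 4 libraries, with adjusted p-values from 0.0797 to 0.417.

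MYCN, the paralog named after neuroblastoma and abundant in ESCs, is on the plus strand at chr2:15940550-15947007 (ENSG00000134323.12). MYCN was at 82.3 and 86.4 CPM in 2-D and at 83.5 and 92.0 CPM in 3-D. The conditions overlapped, since 3-D replicate 1 lay between the 2-D libraries. The fold change was 0.06 (SE 0.05, 95% interval -0.04 to 0.15, adjusted p = 0.541). Without 3-D replicate 1 it was 0.13 (adjusted p = 0.0455) and passed, and without 3-D replicate 2 it was -0.01.

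MYCL, first described in lung cancer and the least abundant MYC paralog here per kb, is on the minus strand at chr1:39895428-39902256 (ENSG00000116990.11). It was at 22.8 and 20.4 CPM in 2-D and at 19.9 and 20.9 CPM in 3-D. The libraries of both conditions overlapped, and MYCL was the 1 member whose fold change lay below 0. Its value was -0.08 (SE 0.08, 95% interval -0.25 to 0.09, adjusted p = 0.618).

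To compare genes with each other, the CPM of a gene was divided by its length in kb, taken as all of its annotated exons joined. On this scale MYCN was the highest member at 30.6 ± 1.04 CPM per kb in 2-D and 31.9 ± 2.17 in 3-D (SD, n = 2), above 93.7% of tested genes. It made up 69.7% and 72.4% of the summed level of the 3 MYC paralogs in 2-D and 70.6% and 71.0% in 3-D. The share of MYC was 19.6% and 18.1% in 2-D and 20.1% and 20.0% in 3-D, and that of MYCL was 10.7%, 9.50%, 9.34% and 8.96% in the same order. The summed level of the paralogs was 42.9, 43.3, 43.0 and 47.0 CPM per kb, so 3-D replicate 2 was the highest library and the other 3 lay together.

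The next levels below MYCN were those of MXD3, at 13.8 ± 0.076 CPM per kb in 2-D, MLX at 11.5 ± 0.119 and MGA at 11.4 ± 0.24. MLX and MGA could not be ranked, since they differed by less than their spread in both conditions. MYC followed at 8.14 ± 0.397, MAX at 6.38 ± 0.0752, MYCL at 4.35 ± 0.33, MNT at 2.28 and MXI1 at 1.57 ± 0.0931 CPM per kb, each separated from its neighbours by more than their SD. The 3-D libraries gave the same order from MYC downwards, with MYC at 9.02 ± 0.533 and MXI1 at 1.77 ± 0.253. MXI1 lay above 41.1% of tested genes, the lowest percentile of the members.

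The order depended on the length that was used. By the length of the Ensembl canonical transcript, an alternative chosen after seeing the data, MXD3 was highest at 61.7 CPM per kb as the mean of 4 libraries, followed by MYCN at 32.9. MAX, at 20.7, then lay above MYC at 14.1. The joined exons of MXD3 span 4743 bases against 1067 in its canonical transcript, and those of MAX 6257 against 2010, so the 2 lengths differ most for these genes. MYCN, with 2755 and 2613 bases, was nearly the same by either. MYCN exceeded MYC in all libraries by both lengths, by 3.51 to 3.99 times with joined exons and by 2.25 to 2.56 times with canonical transcripts.

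**Figure D2:**
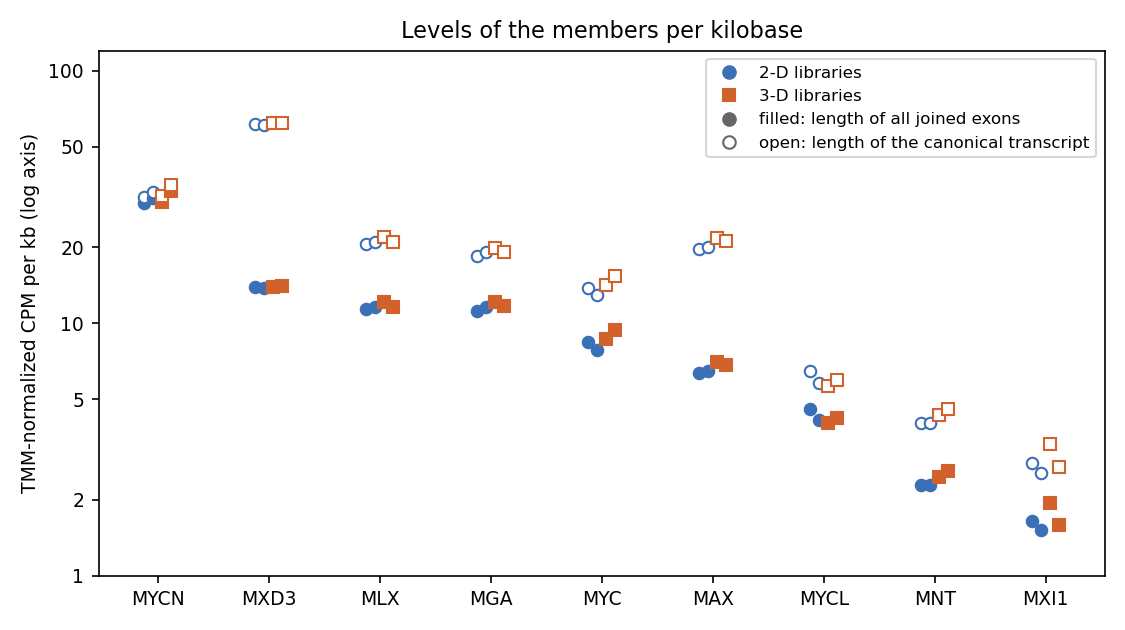
Level of each member in TMM-normalized CPM per kb on a log axis, with 2-D libraries as blue circles, 3-D libraries as orange squares, filled symbols for the length of all joined exons and open symbols for the canonical transcript. The libraries of a gene lie together while the choice of length moves MXD3 from near 14.0 to 61.7 CPM per kb and leaves MYCN near 32.

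MAX, the partner that the MYC, MXD, MNT and MGA proteins share, is on the minus strand at chr14:65006174-65102695 (ENSG00000125952.20). It was at 39.6 and 40.3 CPM in 2-D and at 43.8 and 42.6 CPM in 3-D. Both 3-D libraries lay above both 2-D libraries, by more than the spread within either condition. The fold change was 0.11 (SE 0.05, 95% interval 0.00 to 0.23), with an unadjusted p of 0.0493 and an adjusted p of 0.233. It ranged from 0.05 to 0.11 over the alternatives with 4 libraries and from 0.09 to 0.13 when a library was left out. The lncRNA ENSG00000259118, antisense to MAX and sharing 184 of its exon bases, was at 6.33, 6.30, 8.03 and 7.59 CPM, with a fold change of 0.31 (SE 0.11, adjusted p = 0.127).

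MNT is a broadly expressed MAX-bound repressor that shares E-boxes with MYC. Its gene is on the minus strand at chr17:2384073-2401104 (ENSG00000070444.15). MNT was at 19.8 CPM in each 2-D library and at 21.3 and 22.5 CPM in 3-D. The conditions did not overlap, and the difference was 0.14 (SE 0.07, 95% interval -0.01 to 0.30, adjusted p = 0.277). Thus the gene of the repressor and that of MYC had fold changes that differed by less than either SE.

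MXI1, an MXD family repressor also called MXD2, is on the plus strand at chr10:110207605-110287365 (ENSG00000119950.21). It was at 9.67 and 8.89 CPM in 2-D and at 11.5 and 9.37 CPM in 3-D, from 168 to 333 counts, the fewest of any member. The conditions overlapped, and 3-D replicate 1 was the highest library. MXI1 had the largest fold change and the widest interval of the 9, at 0.17 (SE 0.11, 95% interval -0.08 to 0.42, adjusted p = 0.437). Without 3-D replicate 1 the fold change was 0.01, and without 3-D replicate 2 it was 0.31.

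MXD3, an MXD repressor known from proliferating progenitor cells in S phase, is on the minus strand at chr5:177301461-177312757 (ENSG00000213347.10). It was at 65.8 and 65.3 CPM in 2-D and at 66.0 and 66.4 CPM in 3-D. The 4 libraries lay close together, with both 3-D libraries at the top. The fold change of 0.01 (SE 0.04, 95% interval -0.06 to 0.09, adjusted p = 0.872) was the smallest of the members, and its interval bounds any rise at 0.09. Scaling by library size alone turned it to -0.05, and offsets for gene length and GC content to -0.04.

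MGA, a very large protein with both a T-box and a helix-loop-helix domain that holds MAX in PRC1.6, is on the plus strand at chr15:41621134-41773081 (ENSG00000174197.16). MGA was at 226 and 233 CPM in 2-D and at 242 and 234 CPM in 3-D, the deepest counted of the members with 4198 to 7775 counts. The conditions did not overlap, but 2-D replicate 2 and 3-D replicate 2 were nearly level. The fold change was 0.06 (SE 0.03, 95% interval -0.01 to 0.12, adjusted p = 0.364), and it was -0.01 by library size alone.

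MLX, the partner through which MLXIP and MLXIPL read glucose metabolites, is on the plus strand at chr17:42567072-42573239 (ENSG00000108788.11). It was at 48.6 and 49.3 CPM in 2-D and at 51.7 and 49.3 CPM in 3-D. The lower 3-D library was level with the higher 2-D library to 3 digits. A fold change of 0.05 (SE 0.05, 95% interval -0.06 to 0.15, adjusted p = 0.649) was measured, and it was -0.02 by library size alone.

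**Figure D3:**
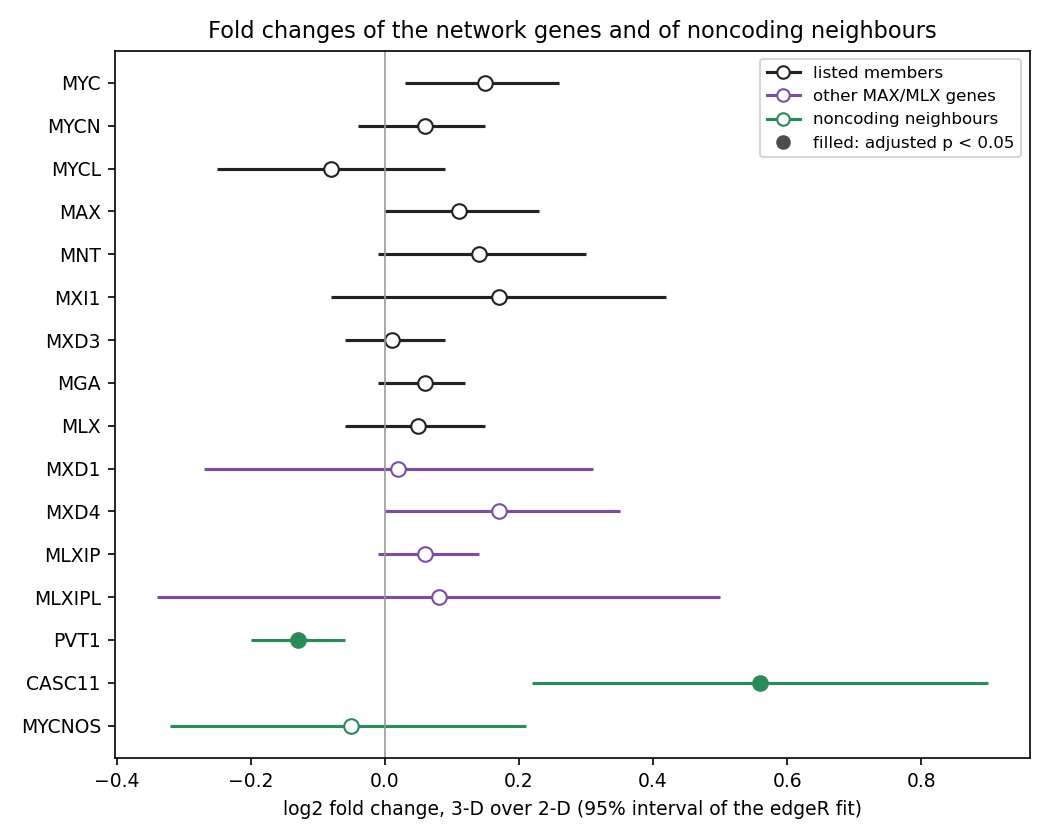
Log2 fold changes of 3-D over 2-D (points) with the 95% interval of edgeR's fit (lines) for the 9 members in black, 4 other network genes in purple and noncoding neighbours of MYC and MYCN in green, filled where the adjusted p was below 0.05. All 13 network genes have open points between -0.08 and 0.17, while PVT1 at -0.13 and CASC11 at 0.56 are filled.

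The other genes of the network were MXD1 and MXD4, repressors that pair with MAX or MLX, and MLXIP and MLXIPL, the activators of the MLX arm. None of these 4 passed the test, and their median fold change was 0.07. MXD4 was at 14.9 and 16.4 CPM in 2-D and at 17.6 CPM in each 3-D library, with a fold change of 0.17 (SE 0.08, 95% interval -0.00 to 0.35, adjusted p = 0.246). MXD4 was also the 1 gene of these 4 with an E-box in its promoter window. MLXIP, at 92.7, 94.6, 99.1 and 96.8 CPM, gave 0.06 (SE 0.03, adjusted p = 0.289). MXD1, at 5.84, 5.00, 5.55 and 5.47 CPM, gave 0.02 (SE 0.13, 95% interval -0.27 to 0.31). MLXIPL, the lowest of the network at 2.58, 2.17, 2.34 and 2.73 CPM, gave 0.08 (SE 0.19, 95% interval -0.34 to 0.50), the widest interval of the network.

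As a description of balance, the summed level of the MYC paralogs was set beside that of the MAX-bound repressors MNT, MXI1, MXD3, MXD1, MXD4 and MGA. The repressors summed to 32.1 and 32.3 CPM per kb in 2-D and to 33.8 and 33.3 in 3-D. The ratio of paralogs to repressors was 1.34 and 1.34 in 2-D and 1.27 and 1.41 in 3-D. The 3-D libraries thus lay on both sides of the 2-D libraries. By canonical transcript lengths the ratio was 0.564, 0.563, 0.546 and 0.60 in the same order, again with 2-D between the 3-D libraries, so whether paralogs or repressors were more abundant depended on the length used.

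Some members share exon bases with other genes, and the strand setting of the counting is not given in the sources used here. MXD3 shared 1148 of its 4743 exon bases (24.2%) with PRELID1 on the opposite strand and 926 (19.5%) with RAB24 on the same strand. PRELID1 was at 97.8 to 103 CPM over the 4 libraries and RAB24 at 0.924 to 1.34 CPM, and neither passed the test. How reads in shared bases were assigned is not given, so the level of RAB24 is uncertain as well. MLX shared 18.2% of its exon bases with PSMC3IP, MAX 13.1% with FNTB and MNT 12.2% with the lncRNA ENSG00000262456, all on the opposite strand, and every other member shared at most 4.6% with any gene, MGA among them with 510 bases shared with ENSG00000260814. PSMC3IP, FNTB and ENSG00000262456 gave fold changes of 0.07, 0.04 and -0.01, and none passed. The values of these 4 members are uncertain to this extent.

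Of 3 tested noncoding neighbours of MYC and MYCN, 1 was higher and 1 lower in 3-D, against 4.54% and 3.36% of all tested genes. PVT1, which hosts microRNAs and is often amplified together with MYC, is on the plus strand at chr8:127794526-128187101. It was at 104 and 107 CPM in 2-D and at 98.1 and 94.7 CPM in 3-D. Both 3-D libraries lay below both 2-D libraries, and PVT1 fell by 0.13 on the log2 scale (SE 0.03, 95% interval -0.20 to -0.06, adjusted p = 0.0317). The call was lost in 7 of 16 alternatives, among them DESeq2, the likelihood ratio test and the removal of 2-D replicate 1, 2-D replicate 2 or 3-D replicate 2. With a library left out the value ranged from -0.16 to -0.10.

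CASC11, an antisense lncRNA whose gene runs into the start of MYC, is at chr8:127686343-127738987. It was at 3.40 and 3.12 CPM in 2-D and at 4.43 and 5.24 CPM in 3-D, from 91 to 117 counts. The conditions did not overlap, and CASC11 was higher in 3-D by 0.56 (SE 0.16, 95% interval 0.22 to 0.90, adjusted p = 0.0456). The call was lost in 6 of the 15 alternatives that gave an adjusted p, among them library size alone and the removal of 2-D replicate 1, 2-D replicate 2 or 3-D replicate 2. With a library left out the value ranged from 0.44 to 0.69. It shares 194 of the 6109 exon bases of MYC (3.2%), and without strand the reads of both genes there cannot be told apart. MYCNOS, antisense to MYCN, was at 7.67, 8.89, 7.40 and 8.59 CPM with a fold change of -0.05 (SE 0.12, adjusted p = 0.864). MYCNUT had at most 3 counts in a library and was not tested.

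Of 18 cofactors through which MYC acts on chromatin and elongation, 17 were tested, and 7 were higher in 3-D and 0 lower, where 4.54% and 3.36% of all tested genes were called. Their median fold change was 0.14, against -0.0001 for all genes, and it was 0.07 by library size alone, with 6 called higher and 1 lower. SMARCB1 was the cofactor that fell under the filter, and since the handling of reads with several matches is not given, its level is uncertain. The lysine acetyltransferase CREBBP was at 189 and 181 CPM in 2-D and at 227 CPM in each 3-D library, a rise of 0.29 (SE 0.03, adjusted p = 1.71e-04). RUVBL1, an ATPase of the TIP60 and INO80 complexes, was at 135 and 134 CPM in 2-D and at 156 and 157 CPM in 3-D, a rise of 0.21 (adjusted p = 7.79e-04). The study names CREBBP, RUVBL1 and EP300 as higher in 3-D from these same samples, so their direction here is not independent evidence. For CREBBP and RUVBL1 it also reports an increase in 3-D by qRT-PCR, which was not examined here. The cofactor list was chosen with earlier results of these data known, so the count called higher is a description only.

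HCFC1, a chromatin adaptor that binds MYC, was at 361, 360, 414 and 424 CPM and rose by 0.22. Its 3-D libraries stood clear of its 2-D libraries. BPTF, the large subunit of the NURF remodeler, rose by 0.19, PAF1, of the elongation complex of that name, by 0.27, and EP300, the paralog of CREBBP, by 0.14. EP300 is named after its value was seen. Among cofactors that did not pass, the ATPase RUVBL2 gave 0.13 (adjusted p = 0.0613), the acetyltransferase KAT5 0.22 (adjusted p = 0.0621) and the scaffold TRRAP 0.05. CREBBP, RUVBL1 and HCFC1 passed in all 16 alternatives, while BPTF and PAF1 were lost without 2-D replicate 2. The count of cofactors called higher was lowest without 2-D replicate 2, at 4, and highest without 3-D replicate 1, at 9.

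Genes that set the stability of the MYC protein gave 3 higher and 0 lower of 15 tested, against 4.54% and 3.36% of all genes. Their median was 0.05, but by library size alone 1 was higher and 2 lower, with a median of -0.02. GSK3A, of the kinase family whose phosphorylation marks MYC for degradation, was at 38.7 and 36.7 CPM in 2-D and at 44.2 and 46.1 CPM in 3-D, a rise of 0.26 (adjusted p = 0.0121) that was lost with DESeq2 and without 2-D replicate 2. The culture medium of both conditions held an inhibitor of GSK3. USP36, a nucleolar deubiquitinase of MYC, rose by 0.12 and HUWE1, a large ubiquitin ligase, by 0.10, calls that were lost in 10 and 8 of 16 alternatives. Without 2-D replicate 2 none of the 15 genes was called.

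The SIN3 corepressor, which the MXD proteins and MNT recruit, gave 2 higher and 0 lower of 14 tested, with a median of 0.03. Over all tested genes, 4.54% were called higher and 3.36% lower. SAP130 was at 69.3 and 72.6 CPM in 2-D and at 86.6 and 84.0 CPM in 3-D, a rise of 0.27 (adjusted p = 0.00108) that passed in all 16 alternatives. SIN3A, the scaffold itself, rose by 0.11, a call lost in 12 of 16. By library size alone 1 gene was higher and 3 were lower, with a median of -0.04.

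Of the partners of MGA in PRC1.6, 0 were higher and 3 were lower of 11 tested, with a median of -0.02. The shares over all tested genes were 4.54% higher and 3.36% lower. CBX3, the heterochromatin protein HP1γ, was at 244 and 241 CPM in 2-D and at 222 and 201 CPM in 3-D, a fall of 0.20 (fold change -0.20, adjusted p = 0.0101) that passed in all 16 alternatives. E2F6, the DNA-binding repressor of the complex, was at 25.8, 25.0, 19.9 and 20.7 CPM, with a fold change of -0.33 (adjusted p = 0.0122). PCGF6, the polycomb ring finger protein that defines PRC1.6, was at 27.5, 27.8, 22.1 and 23.7 CPM, with a fold change of -0.27 (adjusted p = 0.0282). The 3-D libraries of all 3 genes lay below the 2-D libraries. MGA itself did not pass the test, and its fold change of 0.06 went to -0.01 by library size alone. The call of E2F6 was lost in 3 and that of PCGF6 in 6 of 16 alternatives. Both were lost with DESeq2, where CBX3 was the only gene of the list called. RING1 had no counts in any library. The handling of reads with several matches is not given, so this does not show that its RNA was absent. Of 10 germline genes that this complex silences, 5 were tested and 0 were called in either direction, and their median was -0.36, or -0.17 when 3-D replicate 1 was left out. With no filter on low counts, when more of the 10 had a value, the median was 0.01.

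**Figure D4:**
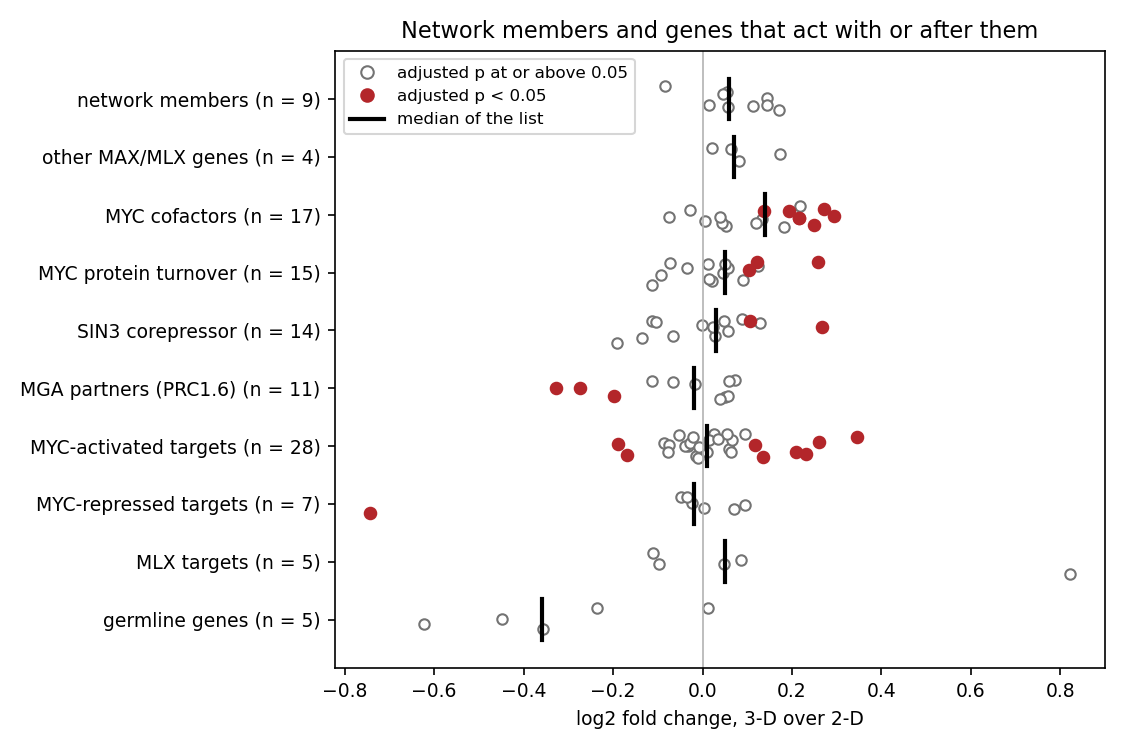
Log2 fold changes of 3-D over 2-D for each tested gene of the network and of lists around it, red where the adjusted p was below 0.05 and open otherwise, with the median of a list as a black bar and n the genes tested. Red points lie only to the right for MYC cofactors (7 of 17), only to the left for the PRC1.6 partners of MGA (3 of 11), on both sides for MYC-activated targets (6 and 2 of 28), and are absent for the 9 members.

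Of 28 tested genes known to be activated by MYC, 6 were higher and 2 lower in 3-D, where 4.54% and 3.36% of all tested genes were called, with a median of 0.01 that was -0.05 by library size alone, where 4 were called lower. Among those that rose, NPM1, a nucleolar chaperone, was at 1875 and 1857 CPM in 2-D and at 2232 and 2085 CPM in 3-D, a rise of 0.21 (adjusted p = 0.00280). SRM, the spermidine synthase, was at 78.0, 78.5, 88.4 and 99.3 CPM and rose by 0.26 (adjusted p = 0.00460). PTMA, a small acidic chromatin protein, was at 1566, 1474, 2131 and 1733 CPM and rose by 0.35 (adjusted p = 0.00864), a value between 0.19 and 0.49 when a library was left out. NCL, nucleolin of the nucleolus, rose by 0.23, the repair endonuclease APEX1 by 0.14 and the serine hydroxymethyltransferase SHMT2 by 0.12.

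Of the activated targets that fell, TFRC, the transferrin receptor, was at 278 and 282 CPM in 2-D and at 244 and 247 CPM in 3-D, with a fold change of -0.19 (adjusted p = 0.00209). FBL, the methyltransferase fibrillarin, was at 192, 187, 176 and 161 CPM, with a fold change of -0.17 (adjusted p = 0.0195). The nucleolar proteins NPM1 and NCL thus rose while FBL fell. NPM1, SRM, NCL and TFRC passed in all 16 alternatives, whereas SHMT2 was lost in 9, APEX1 in 4, FBL in 2 (the likelihood ratio test and without 2-D replicate 1) and PTMA in 1 (DESeq2).

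Among 7 tested genes known to be repressed by MYC, 0 were higher and 1 was lower, against 4.54% and 3.36% of all genes. Their median was -0.02. The 1 was CEBPA, a differentiation factor, at 2.96 and 3.41 CPM in 2-D and at 1.90 CPM in each 3-D library, with a fold change of -0.74 (SE 0.19, adjusted p = 0.0307). Its counts were between 34 and 105, and without 2-D replicate 2 the value was -0.64 and no longer passed. The cell cycle inhibitors CDKN1A and CDKN1B gave -0.05 and -0.02. Of 5 tested targets of the MLX arm, 0 passed in either direction, with a median of 0.05. TXNIP, the glucose-responsive target of that arm, gave -0.10 (SE 0.07, adjusted p = 0.485).

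The genes whose pattern over the 4 libraries was nearest to that of MYC were sought among the 17823 genes with a mean of at least 1 CPM, by the distance between log2 CPM values centred on the mean of a gene. They were TSNAXIP1, COA4, TMEM201, ENSG00000279649 and FXYD6, at distances from 0.0118 to 0.0154. COA4, for example, was at 52.6, 49.5, 54.5 and 58.6 CPM, with a fold change of 0.15 (adjusted p = 0.110). None of these 5 passed the test, and with 4 libraries a close pattern is a description only.

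**Figure D5:**
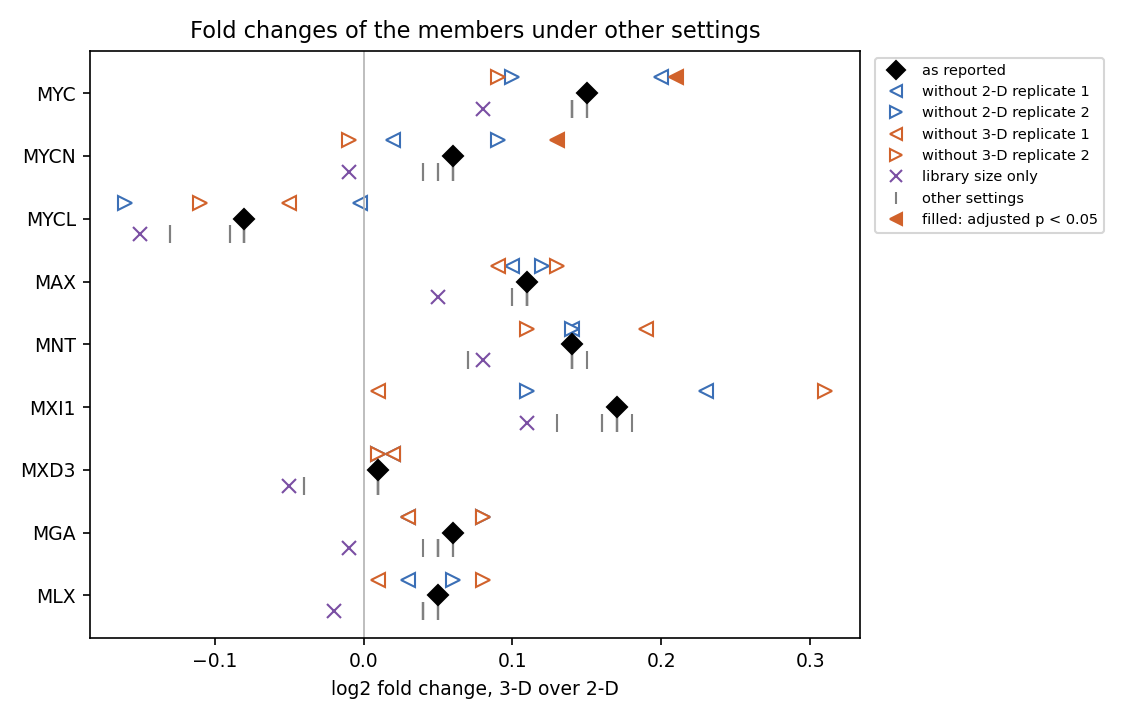
Log2 fold changes of the 9 members as reported (black diamonds), with 1 library left out (triangles), by library size alone (purple crosses) and under the other settings (grey ticks), filled where the adjusted p was below 0.05. The filled triangles are MYC at 0.21 and MYCN at 0.13 without 3-D replicate 1, and the crosses lie left of the diamonds for all members.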

How the data were processed

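RNA was measured in 4 libraries of Elf1 cells, 2 grown in 2-D and 2 in 3-D, prepared with ribosomal RNA depletion and sequenced with paired ends. Per the submitters' processing notes, the authors used Trim Galore 0.6.3, HISAT2 2.1.0, featureCounts 1.6.4 and DESeq2 2.11.40.6, with hg38. The genes are those of GENCODE 30. The deposited counts are whole reads per gene without normalization, 1 file for each library. The deposited normalized signal is these counts divided by 1 size factor for each library, by the authors, and was used for an alternative only. The columns of the authors' own comparison (fold change, standard error, statistic and p-values) were not used. Settings for strand and for reads with several matches are not given in the sources used here.

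Names, positions and lengths came from GENCODE 44, which matched 60295 of 60564 identifiers, and the 269 others held 0.122% of the counts. Counts were tested with edgeR 4.0.16 (limma 3.58.1) in R 4.3.3, with TMM, its filter on low counts, the quasi-likelihood test and Benjamini-Hochberg adjustment over 22555 genes at a threshold of 0.05. The biological coefficient of variation was 5.10%. The fit was tested on simulated data with planted changes larger than any fold change of the members, so that test does not cover changes of their size. Libraries of a condition differed by more than sampling noise (chi-square over degrees of freedom 2.27 in 2-D and 3.92 in 3-D), so each was kept as a replicate. Tables used Python 3.11.15, pandas 2.3.3, numpy 2.4.6, scipy 1.17.1, matplotlib 3.10.9 and BLAST+ 2.17.0+, which found 4 transcripts that share a stretch with a member, all of them genes that overlap it. Intervals cover the spread between these libraries only.

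Named genes were every member, the other network genes and neighbours, at most 6 called genes in each direction of each list by smallest p, and the 5 genes nearest to MYC. The members and lists were chosen with earlier results of these data known. The same results were recomputed with 2 other tests (the likelihood ratio test of edgeR and DESeq2 1.42.0), with 3 other scalings (size factors as in DESeq2, library size alone, and TMM after leaving out histone, ribosomal protein and mitochondrial genes), and with 2 other filters (none, or 10 counts or more in each library). Further fits added the replicate number as a block, length and GC offsets, or both. The remaining alternatives were limma-trend on log2 of the normalized signal plus 1, thinning of 2-D counts to the depth of 3-D, and leaving out each library. CCAT1 had no match and was not analysed here, and 1 gene that the rule names is not reported here.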

Additional observations from a re-analysis of the deposited data

How the results depend on the processing

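The count of genes that changed was 1782 as reported, 1139 with the likelihood ratio test and 795 with DESeq2, and 974 to 2643 when a library was left out. The count of members that passed was 0 under each alternative with 4 libraries and 0 to 2 with a library left out, the 2 being MYC and MYCN without 3-D replicate 1. With the replicate block 2167 genes changed and the members that passed remained 0. The correlation of same-numbered libraries' deviations from their condition mean was -0.0192 over 17823 genes. With 2 pairs this cannot show whether libraries of the same number share more than that number. Directions turned by library size alone for MYCN (-0.01), MXD3 (-0.05), MGA (-0.01), MLX (-0.02) and MXD1 (-0.04), and the log2 fold change of MLXIP went to -0.0002. Offsets for gene length and GC content, with or without the replicate block, gave -0.04 for MXD3 and -0.01 for MLXIP. Leaving out a library also turned 4 genes, with ranges of -0.01 to 0.13 for MYCN (negative without 3-D replicate 2), -0.08 to 0.14 for MXD1 (negative without 2-D replicate 2), -0.03 to 0.22 for MLXIPL (negative without 2-D or 3-D replicate 2) and -0.16 to 0.06 for MYCNOS (positive without 2-D replicate 2 or 3-D replicate 1). The causes were not tested. Of 29 named genes of the lists that passed, 17 to 28 also passed with a library left out, 21 with the likelihood ratio test and 19 with DESeq2, which gave no adjusted p for MXI1, MXD1, MLXIPL, CASC11, MYCNOS and CEBPA. Low counts limit MXI1, MXD1, MLXIPL, CASC11, MYCNOS and CEBPA, each with at most 333 in any library.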

Other observations

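Genes with the E-box CACGTG in their promoter window were compared with the rest as a description. Of the 1515 tested genes with the E-box, 161 (10.6%) changed between 2-D and 3-D, against 1062 (9.33%) of the 11377 without it. The median fold changes were 0.012 and 0.005. The E-box was present for 98 of 715 genes higher in 3-D (13.7%) and for 63 of 508 genes lower in 3-D (12.4%). Among network genes with an E-box, MNT, MLX and MXD4 had fold changes of 0.14, 0.05 and 0.17, and none of them passed the test.

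ACACA, the acetyl-CoA carboxylase listed as a target of the MLX arm, had the largest fold change of that list, at 0.82 (SE 0.25), with an adjusted p of 0.066 by edgeR's quasi-likelihood test. ACACA was chosen after its value was seen, and its SE was above that of CEBPA (0.19), whose counts were between 34 and 105. The value of ACACA is therefore imprecise. Whether reads with several matches were lost from ACACA cannot be told, since their handling is not given. FASN, the fatty acid synthase of the same pathway, gave 0.09 (SE 0.04, adjusted p = 0.258).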
